A study of Mus musculus with 4 samples.

Results

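Genes for calcium channels, calcium stores and calcium extrusion were examined for binding by BAF (SWI/SNF), a chromatin remodelling complex, in mouse cortical neurons. The set held 34 of the 21887 protein-coding genes annotated by RefSeq and was defined by gene name and function, with no measured value in the rule, though earlier results of these data were known when it was drawn up. It comprised 8 pore subunits and 7 auxiliary subunits of voltage-gated calcium channels, 7 genes of store release and refilling, 3 of store-operated entry, 7 of extrusion across the plasma membrane and 2 for calmodulin. BRG1 and BRM, the alternative ATPases of the complex, were immunoprecipitated together with the J1 antibody, which does not separate them, and the DNA was sequenced (ChIP-seq). The neurons were wild type, were dissociated from cortex at E16.5, were kept in neurobasal plus medium with B27 plus, and were 6 days in vitro at harvest. In the KCl group, tetrodotoxin (TTX, 1 µM), which blocks sodium channels, and APV (100 µM), which blocks NMDA receptors, were given on day 5, and 50 mM KCl followed for 1 h on day 6. The basal group had the basal KCl level, and whether it also received TTX and APV is not stated in the labels. Each group had 1 immunoprecipitated (IP) library and 1 input library. How many embryos a culture came from is not stated. Since every comparison between KCl and basal is a comparison of 1 library with another, no p-value is given for any of them.

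Calcium is kept far lower in the cytosol of a neuron than outside the cell or in the endoplasmic reticulum. Raising extracellular KCl depolarizes the membrane and opens voltage-gated calcium channels, and calcium entering through the L-type channels is a well known trigger of activity-dependent transcription. Ryanodine and IP3 receptors release calcium from the stores, STIM and Orai proteins let calcium in when the stores run low, and pumps and exchangers return it to the stores or to the outside.

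The measurements were islands, the stretches of mouse build mm10 (GRCm38) that the authors called as enriched, in a list for KCl and a list for basal neurons. Each island came with its IP reads, its control reads and the authors' fold, in which IP reads are divided by control reads after scaling for library size. Brackets after a fold give a 95% exact (Clopper-Pearson) interval that covers counting error only. The KCl list held 20966 islands with 1433200 IP and 400612 control reads, and the basal list held 711 islands with 142021 IP and 130865 control reads. The fewest IP reads in an island were 20 in the KCl list and 18 in the basal list. The depth of the libraries is not given in the sources used here, so a gene without an island may have had signal too low to be called. Of 10 genes that mark neurons, 8 had a KCl island within 2 kb of a gene end. The counts were 4 of 8 astrocyte, 1 of 8 interneuron, 2 of 8 skeletal muscle and 0 of 8 microglial marker genes. The share of all protein-coding genes was 25.2%. The neuron markers were also longer, with a median of 40.6 kb, against 10.2 to 22.6 kb in the other marker sets. Islands are no measure of expression, and these counts do not give the makeup of the cultures.

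Annotated starts were read from RefSeq promoter entries of the same build (GRCm38.p6), which covered 26 of the 34 genes with 37 start entries. Cacna1a, Cacna1g, Cacna1h, Ryr3, Itpr1, Atp2a2, Atp2b3 and Calm2 had no entry. Each entry gives 250 bases before to 50 bases after a start, on the strand of the gene. The following entries are shown because they carry the main positional findings on the starts. The Cacna1c gene has 3 annotated starts of which only the middle one, at chr6:119108446-119108745, lay under a KCl island. Its upstream start at chr6:119196360-119196659 and its downstream start at chr6:118757925-118758224 did not, and all 3 are on the minus strand. Stim1 (chr7:102267569-102267868, plus strand), Orai1 (chr5:123014824-123015123, plus strand) and Calm3 (chr7:16923983-16924282, minus strand) are G+C-rich starts under a KCl island. Slc8a1 (chr17:81738338-81738637, minus strand) is a start under a KCl island with a low G+C share for these genes. Capitals mark each match to TGACG, the shorter form of the cAMP response element (CRE), read on either strand and so also written CGTCA.
Cacna1c upstream start: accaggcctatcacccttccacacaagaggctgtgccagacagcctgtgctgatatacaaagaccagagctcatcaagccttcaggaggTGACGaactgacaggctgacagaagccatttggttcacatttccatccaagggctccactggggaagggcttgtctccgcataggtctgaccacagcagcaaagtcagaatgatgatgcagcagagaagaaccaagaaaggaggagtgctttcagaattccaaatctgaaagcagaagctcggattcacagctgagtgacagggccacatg
Cacna1c middle start: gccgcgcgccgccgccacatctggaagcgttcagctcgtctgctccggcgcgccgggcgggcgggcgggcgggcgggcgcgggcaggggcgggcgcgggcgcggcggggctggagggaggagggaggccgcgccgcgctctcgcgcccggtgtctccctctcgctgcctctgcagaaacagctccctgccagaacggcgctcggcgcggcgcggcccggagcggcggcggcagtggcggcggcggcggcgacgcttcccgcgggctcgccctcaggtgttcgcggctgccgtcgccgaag
Cacna1c downstream start: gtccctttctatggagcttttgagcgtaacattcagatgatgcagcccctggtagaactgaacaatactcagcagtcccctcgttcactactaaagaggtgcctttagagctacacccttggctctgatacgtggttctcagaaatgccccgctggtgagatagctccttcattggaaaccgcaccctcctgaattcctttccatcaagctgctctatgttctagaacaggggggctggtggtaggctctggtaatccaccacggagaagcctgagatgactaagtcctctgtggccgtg
Stim1 start: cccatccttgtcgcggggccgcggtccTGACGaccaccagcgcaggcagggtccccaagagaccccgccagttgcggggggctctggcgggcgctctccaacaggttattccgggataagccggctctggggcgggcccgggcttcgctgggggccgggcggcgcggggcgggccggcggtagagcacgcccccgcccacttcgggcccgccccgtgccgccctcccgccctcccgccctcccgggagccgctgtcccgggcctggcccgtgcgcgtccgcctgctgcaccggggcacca
Orai1 start: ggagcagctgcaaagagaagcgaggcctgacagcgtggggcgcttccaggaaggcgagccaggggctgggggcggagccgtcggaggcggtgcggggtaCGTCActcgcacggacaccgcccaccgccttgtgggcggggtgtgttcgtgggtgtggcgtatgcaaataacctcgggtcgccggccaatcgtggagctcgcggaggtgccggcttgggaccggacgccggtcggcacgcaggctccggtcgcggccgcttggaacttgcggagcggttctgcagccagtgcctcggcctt
Calm3 start: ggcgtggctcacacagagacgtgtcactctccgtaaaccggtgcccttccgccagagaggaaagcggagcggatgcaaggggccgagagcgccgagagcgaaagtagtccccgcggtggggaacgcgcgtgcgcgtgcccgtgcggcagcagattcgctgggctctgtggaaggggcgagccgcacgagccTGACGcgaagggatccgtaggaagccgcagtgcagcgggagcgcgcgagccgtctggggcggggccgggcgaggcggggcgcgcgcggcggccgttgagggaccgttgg
Slc8a1 start: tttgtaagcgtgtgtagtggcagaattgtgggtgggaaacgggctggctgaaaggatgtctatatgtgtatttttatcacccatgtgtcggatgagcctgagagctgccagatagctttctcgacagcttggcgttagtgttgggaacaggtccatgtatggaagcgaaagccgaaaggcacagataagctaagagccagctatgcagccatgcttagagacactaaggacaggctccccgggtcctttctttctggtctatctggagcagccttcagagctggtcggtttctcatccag

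The first question was how many calcium-handling genes carried an island in each state. In KCl-treated neurons, 17 of the 34 genes (50.0%) had an island within 2 kb of an end of the annotated gene, against 25.2% of all protein-coding genes. An island in the body or its 10 kb flanks was called at 29 of the 34 genes (85.3%) in KCl, against 38.9% of all protein-coding genes. In basal neurons, 0 of the 34 genes had an island within 2 kb of an end, where 0.411% of all protein-coding genes had one. In the body or 10 kb flanks, 6 of the 34 genes (17.6%) had a basal island, against 1.68% of all protein-coding genes. Cacna2d2, Cacnb3, Ryr2, Itpr3 and Atp2b3 had no island in either list. The KCl counts rest on a longer list. With the KCl list shortened to 711 islands, the length of the basal list, by p-value, 0 of the 34 genes had a KCl island at an end, against 0.114% of all protein-coding genes, and 5 had one in the body or flanks, against 1.51%. With the list shortened by fold, 0 of the 34 genes had an end island, against 0.0685% of all genes, and 3 had one in the body or flanks, against 1.46%.

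Calcium-handling genes are long, with a median length of 133 kb against 17.2 kb for all protein-coding genes, and long genes have more room for islands. The counts were therefore read against all genes of the same length class. Under 20 kb, 3 of 4 genes had a KCl island at an end, against 17.5% of all genes in that class. Between 20 and 50 kb the count was 2 of 3, against 26.9%, and between 50 and 100 kb it was 3 of 5, against 38.5%. From 100 kb upwards the share at the ends of the annotated gene was below that of the class. At 100 to 200 kb, 3 of 8 genes had an end island, against 42.5% of all genes; at 200 to 400 kb the count was 3 of 7, against 46.2%; and above 400 kb it was 3 of 7, against 56.2%. Divided at 100 kb, a division chosen after the values were seen, 8 of the 12 shorter and 9 of the 22 longer genes had a KCl island at an end. The result for the longer genes depended on which ends were counted, because 5 of them had an island at a start inside the gene and at neither end. With annotated starts counted as well, a choice made after seeing the data, the KCl count was 22 of 34, against 26.6% of all protein-coding genes, and the longer genes had an island in 14 of 22 cases. By class these were 4 of 8 genes at 100 to 200 kb, against 47.3%, and 4 of 7 at 200 to 400 kb, against 51.6%. Above 400 kb the count was 6 of 7, against 64.2%. In none of these classes was the share of all genes still the higher one. This rests in part on weak start islands. Their intervals reached below 1 at Cacna1c, 1.47-fold [0.996 to 2.21], Cacna1e, 1.55-fold [0.984 to 2.49], and Stim1, 1.52-fold [0.928 to 2.55]. The intervals at Cacna1d, 1.62-fold [1.03 to 2.60], and Atp2b2, 1.82-fold [1.08 to 3.20], lay above 1.

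**Figure D1:**
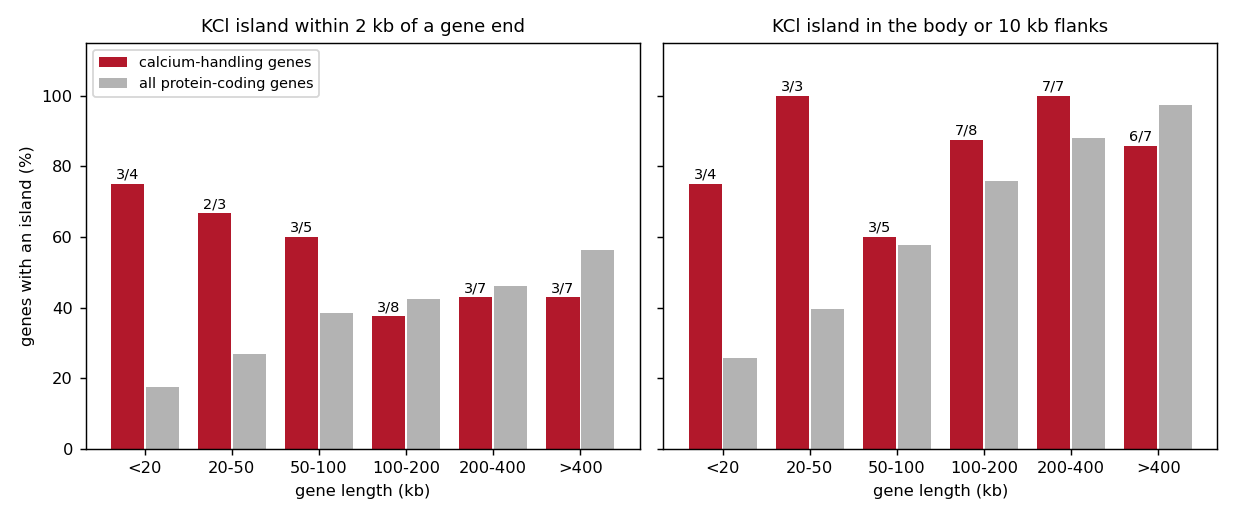
Share of genes (%) with a KCl island within 2 kb of a gene end (left panel) or in the gene body or 10 kb flanks (right panel), by class of gene length in kb, for calcium-handling genes (red, with counts above the bars) and all protein-coding genes (grey). At the ends the red bars stand above the grey ones in the 3 classes under 100 kb and below them in the 3 classes from 100 kb upwards, where islands at starts inside the gene are not counted.

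In the body or flanks, the share of all genes with a KCl island grew with length, and most calcium-handling genes had one in every class. The counts were 3 of 4 genes under 20 kb, against 25.7% of all genes in that class, and 3 of 3 between 20 and 50 kb, against 39.7%. They were 3 of 5 at 50 to 100 kb, against 57.8%, and 7 of 8 at 100 to 200 kb, against 75.7%. At 200 to 400 kb 7 of 7 genes had an island, against 87.9%, and above 400 kb 6 of 7 had one, against 97.4%. In these last classes nearly any gene had an island, so the count of 29 genes says little about calcium-handling genes of that length. The basal islands were all at genes of 100 kb or more, with 1 gene of 8 in the 100 to 200 kb class against 4.52% of all genes, 3 of 7 in the 200 to 400 kb class against 7.37%, and 2 of 7 above 400 kb against 20.2%. None of these differences was tested, because the genes were chosen with results of these data known.

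The calcium-handling genes held 94 KCl islands, and their folds ran between 1.39 and 14.8. Islands were spread unevenly over the genes. Cacna2d1 and Cacna2d3 held 9 each, Slc8a1 held 8 and Cacna1c held 7, while 20 genes held 1 to 3 and 5 held 0. Of the 94 islands, 77 (81.9%) had a fold interval that lay above 1, against 86.4% of all KCl islands. In the flanks and not in the gene lay 6 of the 94. The genes above 400 kb had a median of 5.00 KCl islands each among the calcium-handling genes and 6.00 among all protein-coding genes of that class.

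**Figure D2:**
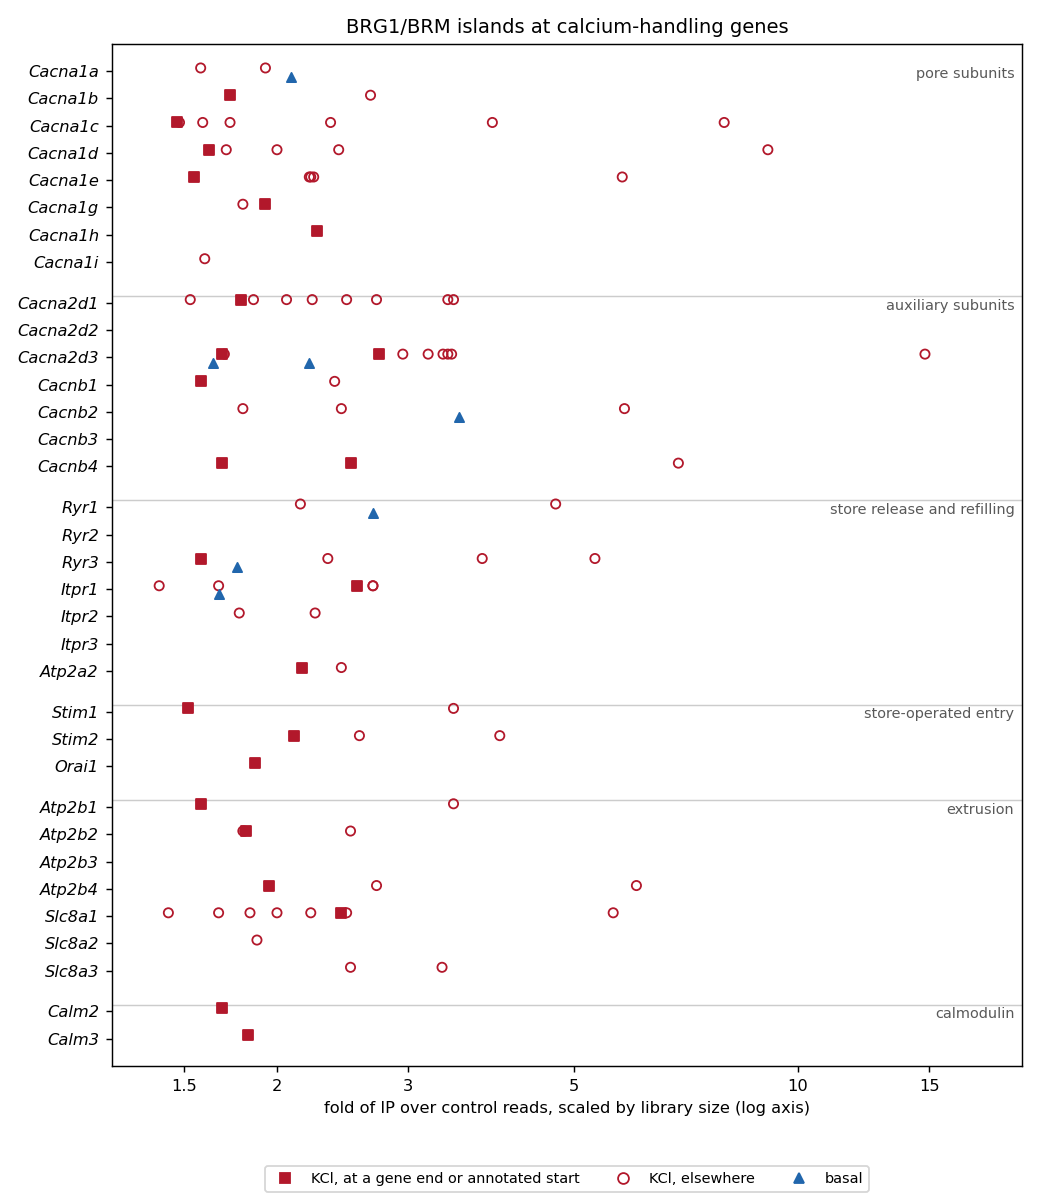
Fold of IP over control reads (log axis) of every island at the 34 calcium-handling genes, ordered by role, with KCl islands in red (squares, within 2 kb of a gene end or annotated start; open circles, elsewhere) and basal islands as blue triangles. The red squares lie between 1.47 and 2.74, the open circles reach 14.8, and genes with no symbol had no island.

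All 8 pore subunits of voltage-gated channels had a KCl island in the body or flanks, 3 of them at a gene end, and 1 had a basal island. These proteins form the conducting pore and sense the voltage. For this and the following roles, the KCl shares of all protein-coding genes were 38.9% in the body or flanks and 25.2% at an end. The basal share in the body or flanks was 1.68%. Pore genes had a median length of 230.5 kb, and 87.9% of all genes of 200 to 400 kb had a KCl island there. Cacna1b, the pore of the presynaptic N-type channel, had a 4200 bp KCl island over its start with 124 IP and 45 control reads, a fold of 1.73 [1.22 to 2.49]. Of the T-type pores, which open at small depolarizations, Cacna1h had an end island of 2.26-fold [1.26 to 4.31] from 54 IP and 15 control reads. Cacna1g had one of 1.93-fold [1.04 to 3.82] from 43 IP and 14 control reads. The third T-type pore, Cacna1i, had only a flank island, 7238 bp from the gene, whose interval reached below 1 at 1.60-fold [0.938 to 2.84]. Cacna1a, the pore of the P/Q-type channel of many presynaptic terminals, had no island within 2 kb of an end in either list.

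The long L-type and R-type pore genes were covered mostly inside. Cacna1c, the main L-type pore of cortical neurons, had 7 KCl islands along its 610.1 kb and none within 2 kb of its ends. Its strongest island was 400 bp wide at chr6:118833401-118833800, with 38 IP and 3 control reads, 7.96-fold [2.52 to 40.3]. The island over its middle start was wider, 3400 bp, and weaker, with 89 IP and 38 control reads, 1.47-fold [0.996 to 2.21]. Cacna1d, the other L-type pore of neurons, had 5 KCl islands, the strongest again 400 bp wide, with 29 IP and 2 control reads, 9.11-fold [2.30 to 78.8]. Cacna1e, the R-type pore, also had 5 islands, with its strongest of 5.81-fold [2.09 to 22.4] from 37 IP and 4 control reads. In each of these 3 genes the strongest island was narrow, rested on 4 control reads or fewer and so had a wide interval. In each the island near an annotated start had a lower fold. It was 1.47-fold in Cacna1c, 1.62-fold [1.03 to 2.60] in Cacna1d and 1.55-fold [0.984 to 2.49] in Cacna1e. The strongest island was picked as the largest of several folds, so a lower fold at the start was likely beforehand. In Cacna1d and Cacna1e the intervals of the start island and the strongest island overlapped, and in Cacna1c they did not.

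**Figure D3:**
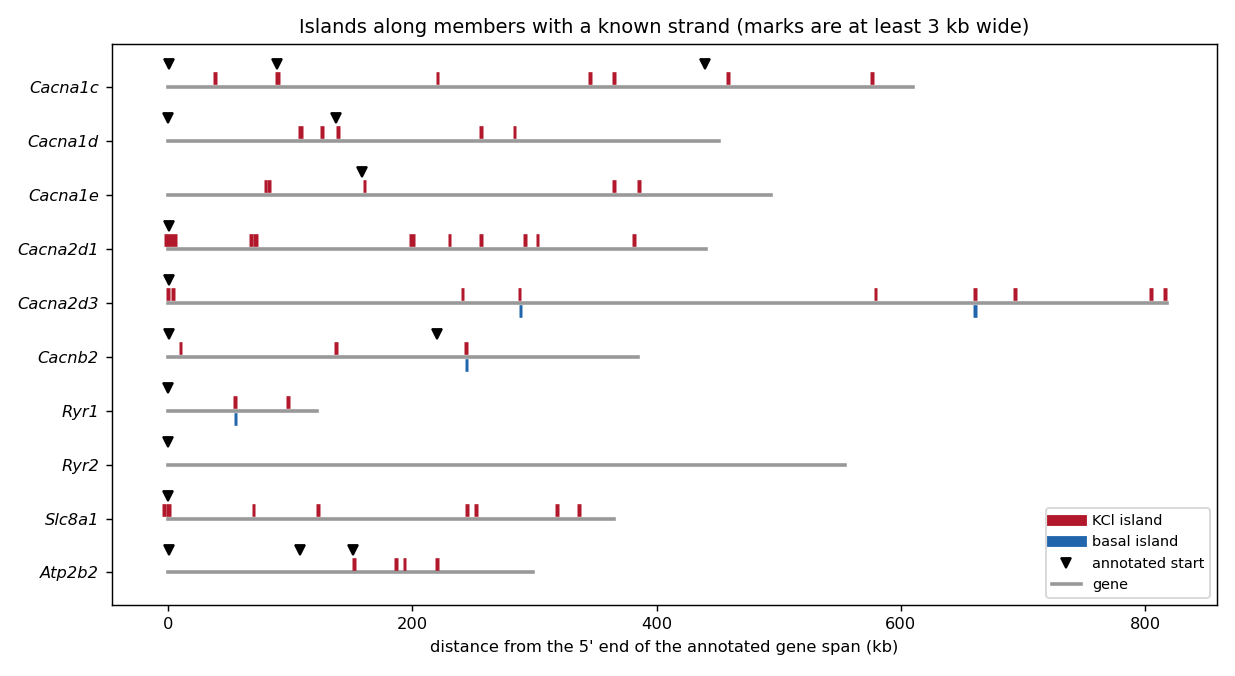
Position of KCl islands (red, above the line) and basal islands (blue, below it) along 10 calcium-handling genes, in kb from the 5′ end of the annotated gene, with annotated starts as black triangles. Cacna2d1 and Slc8a1 have a red block over their start, Cacna1c has one over its middle start only, and Ryr2 has none along 554 kb.

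Of the 7 auxiliary subunits, 5 had a KCl island in the body or flanks, 4 of them at an end, and 2 had basal islands. The alpha2delta proteins, encoded by the Cacna2d genes, bring channels to the surface, and some of them are targets of gabapentin. Cacna2d1 had the widest island of the set, 11400 bp over its start at chr5:15930601-15942000, with 302 IP and 106 control reads, 1.79-fold [1.43 to 2.25]. Only 31 of the 20966 KCl islands (0.148%) were at least as wide. Further inside the gene, an island of 5400 bp held 225 IP and 52 control reads, 2.72-fold [2.0 to 3.75]. Cacna2d3, the longest gene of the set at 818 kb, had an island of 1.69-fold [1.09 to 2.68] over its start. Its strongest, at chr14:28918401-28919400 near the other end of the gene, held 47 IP and 2 control reads, 14.8-fold [3.86 to 125]. Another Cacna2d3 island lay within the nested gene Lrtm1. Cacna2d2 had none.

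The beta subunits, encoded by the Cacnb genes, bind the pore on its cytosolic side and set its gating and traffic. Cacnb4 had the largest fold of an end island among the auxiliary subunits, 2.51-fold [1.58 to 4.16], from 92 IP and 23 control reads over 2 of its 3 annotated starts. It also had a 600 bp island of 6.91-fold [2.51 to 26.5] inside the gene. A second end island of Cacnb4, 1920 bp beyond its far end, also lay at the end of the neighbouring gene Arl5a. Cacnb1 had an end island of 1.58-fold [0.982 to 2.63] from 63 IP and 25 control reads, which lay within 2 kb of an end of the ribosomal protein gene Rpl19 as well. For these islands the gene they belong to cannot be told from position. Cacnb2 had 3 KCl islands and none at its ends, and Cacnb3, the shortest of the beta genes, had none.

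In the group of store release and refilling, 5 of 7 genes had a KCl island, 3 of them at an end, and 3 had a basal island. Itpr1, the main neuronal IP3 receptor, had 5 KCl islands, among them one of 2.56-fold [1.38 to 5.12] that began 1318 bp inside a gene end, with 53 IP and 13 control reads. Atp2a2, the pump that refills the endoplasmic reticulum in most cells, had a 5400 bp end island with 158 IP and 46 control reads, 2.16-fold [1.54 to 3.06]. Itpr2 had 2 islands far from its ends, and Itpr3 had none. The ryanodine receptor genes differed from one another in their calls. Ryr3 had 4 KCl islands, of which the end island was the weakest at 1.58-fold [0.962 to 2.69]. Ryr1, known best as the release channel of skeletal muscle, had 2, of which one held 158 IP and 21 control reads, 4.73-fold [2.99 to 7.85]. Ryr2, known best from heart and also a main ryanodine receptor of the brain, had 0 islands in either list along 554 kb, although 97.4% of all genes above 400 kb had a KCl island in the body or flanks.

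All 3 genes of store-operated entry had KCl islands in the body or flanks, against 38.9% of all protein-coding genes, and none had a basal one. With 1.68% of all protein-coding genes called in basal, the lack of a basal island in 3 genes says little. Orai1, the pore of the entry channel, had a single island of 3000 bp over its start, with 101 IP and 34 control reads, 1.87-fold [1.25 to 2.84]. Stim2, a sensor of calcium in the endoplasmic reticulum, had a start island with 94 IP and 28 control reads, 2.11-fold [1.37 to 3.34], and 2 more inside. Stim1, the other sensor, had an island over its annotated start, 5487 bp inside the annotated gene, with 58 IP and 24 control reads, 1.52-fold [0.928 to 2.55]. The interval of the Stim1 start island thus reached below 1. A second Stim1 island far inside the gene was stronger, 3.45-fold [1.85 to 7.02].

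Of the 7 extrusion genes, 6 had a KCl island, 3 of them at an end, and none had a basal one. Their median length was 112 kb, and 75.7% of all genes of 100 to 200 kb had a KCl island in the body or flanks. Only 1.68% of all protein-coding genes had a basal one there, so its lack in 7 genes says little. Slc8a1, a sodium-calcium exchanger, had 8 KCl islands, the most in this group. The one over its start held 144 IP and 37 control reads over 4000 bp, 2.44-fold [1.69 to 3.61], the largest fold of an end island in the group. A 600 bp island 4414 bp outside the same end reached 5.65-fold [2.03 to 21.9] with 36 IP and 4 control reads. The exchanger genes Slc8a2 and Slc8a3 had 1 and 2 islands, all away from the ends. Atp2b1, a calcium pump of the plasma membrane, had a 4400 bp start island with 128 IP and 51 control reads, 1.58-fold [1.13 to 2.23]. Atp2b4, another such pump, had an end island of 1.95-fold [1.16 to 3.40] from 62 IP and 20 control reads, but its annotated start in the promoter table lay elsewhere, with no island within 2 kb. Atp2b2, a pump abundant in neurons, had 4 islands and none at its ends, though one of 1.82-fold [1.08 to 3.20] covered an internal start. Atp2b3, the only X-linked gene of the set, had none.

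Both calmodulin genes had a single KCl island, at an end. Calmodulin binds calcium and regulates many of the channels and pumps named above. The Calm2 island held 110 IP and 41 control reads, 1.69-fold [1.17 to 2.47], and the Calm3 island held 99 IP and 34 control reads, 1.83-fold [1.23 to 2.79].

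Voltage-gated channel genes were set beside the rest of the group. At an end, 7 of the 15 voltage-gated genes and 10 of the other 19 genes had a KCl island, against 25.2% of all protein-coding genes. In the body or flanks the counts were 13 of 15 and 16 of 19, against 38.9%. For basal islands in the body or flanks they were 3 of 15 and 3 of 19, against 1.68%. Among all genes of 100 to 200 kb, 75.7% had a KCl island in the body or flanks, and the share was higher in the longer classes. The roles also differ in gene length, with medians of 338 kb for store genes, 248 kb for auxiliary subunits, 230.5 kb for pores, 123 kb for store-operated entry, 112 kb for extrusion and 11.1 kb for calmodulin. With so few genes to a role, no difference between roles was tested.

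Islands at ends or annotated starts differed in shape from those elsewhere. The 24 KCl islands at an end or annotated start had a median width of 2800 bp and a median fold of 1.81, with a range of 1.47 to 2.74. The 70 KCl islands elsewhere had a median width of 1400 bp and a median fold of 2.43, with a range of 1.39 to 14.8. Of the islands elsewhere, 22 reached 3-fold and 16 were 600 bp wide or narrower, whereas 0 of the 24 at ends or starts did either. The median density of control reads was the same in both places. The median density of IP reads was 29.4 per kb at ends or starts and 38.8 per kb elsewhere. The division of ends from other places was seen over all protein-coding genes too, so it is not particular to calcium-handling genes. With islands divided by gene ends alone, the median fold over all genes was 1.82 at the ends and 2.55 away from them. Divided in the same way, calcium-handling genes had medians of 1.85 and 2.37. The islands with folds above 7 each rested on 2 or 3 control reads, and their intervals were wide.

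The second question was which islands were present in both states. The 7 basal islands lay at Cacna1a, Cacna2d3 (2 islands), Cacnb2, Ryr1, Ryr3 and Itpr1. All 7 overlapped a KCl island by at least 600 bp, compared with 449 of the 711 basal islands of the genome (63.2%) that overlapped one at all. Among KCl islands, 7 of the 94 at calcium-handling genes (7.45%) overlapped a basal island, against 450 of all 20966 (2.15%). None of the 7 lay at a gene end, and the one at Cacna1a lay outside the gene, in its flank. The remaining 87 KCl islands of these genes had no basal counterpart.

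Cacnb2 had the highest basal fold. Its island inside the gene had 121 IP and 13 control reads in KCl, 5.85-fold [3.29 to 11.3], and 34 IP and 11 control reads in basal, 3.51-fold [1.74 to 7.69]. At Ryr1 the counts were 158 IP and 21 control reads in KCl, 4.73-fold [2.99 to 7.85], and 52 IP and 22 control reads in basal, 2.69-fold [1.60 to 4.64]. The Ryr3 island had 126 IP and 21 control reads in KCl, 3.77-fold [2.36 to 6.30], and 56 IP and 36 control reads in basal, 1.77-fold [1.14 to 2.77]. These 3 islands are internal to their genes. They were also among the 5 islands of calcium-handling genes within the first 711 of the KCl list by p-value, the other two being at Cacna2d1 and Cacna2d3.

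At Itpr1 the shared island had 77 IP and 18 control reads in KCl, 2.69-fold [1.59 to 4.77], and 63 IP and 43 control reads in basal, 1.67-fold [1.11 to 2.51]. The shared islands of Cacna2d3 stood at 2.95-fold [1.60 to 5.85] and 3.34-fold [1.94 to 6.10] in KCl, and at 2.21-fold [1.22 to 4.14] and 1.64-fold [0.980 to 2.79] in basal. The flank island of Cacna1a had 1.93-fold [1.04 to 3.82] in KCl and 2.09-fold [1.17 to 3.87] in basal. The fold was thus the larger one in KCl at 6 of the 7 shared islands, but the intervals overlapped at all 7. Because each fold rests on the control of its own list, and the paired islands differ in width and come from libraries of unstated depth, neither the folds nor the reads compare the amount of binding in KCl with that in basal.

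**Figure D4:**
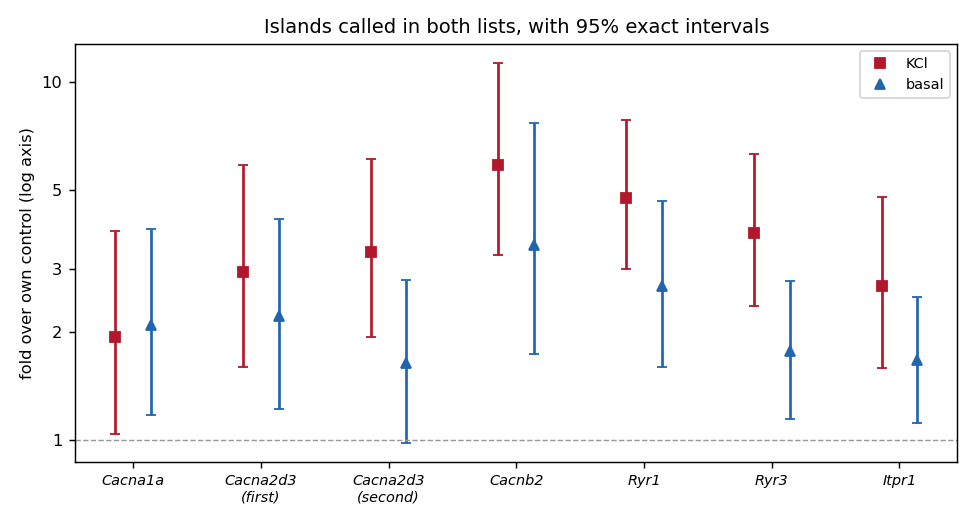
Fold over own control (log axis) of the 7 islands called in both lists, KCl as red squares and basal as blue triangles, with 95% exact intervals; the dashed line marks a fold of 1. The KCl symbol stands above the basal one for all pairs but Cacna1a, and the intervals of each pair overlap.

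At annotated starts, 15 of the 26 genes with an entry had a KCl island within 2 kb, against 24.0% of all genes in the promoter table, a count chosen after seeing the data. In basal, 0 of the 26 had one, against 0.303% of all genes in the table. Within 2 kb of the far end from the 5′ end, 1 of the 26 genes, Cacnb4, had a KCl island, against 5.08% of all genes in the table. The end islands of calcium-handling genes therefore lay almost all at the 5′ side wherever the strand is known. For Cacna1c, Cacna1d, Cacna1e, Atp2b2 and Stim1, an island lay at an annotated start inside the gene but at neither end. Cacna1c, Cacna1d and Atp2b2 also have a start entry at the 5′ end of the gene, and no KCl island lay within 2 kb of it. Counting either place, 16 of the 26 genes had a KCl island at an end or start. For this count no share was computed over the genes in the promoter table alone. Over all protein-coding genes the share was 26.6%, but it rose with length, from 47.3% at 100 to 200 kb to 64.2% above 400 kb.

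The starts under a KCl island were rich in G+C. A KCl island covered 14 of the 37 start entries, and these had a median G+C share of 77.5%, against 59.7% for the 23 entries not covered. Over all promoter entries the medians were 64.7% for the 4661 covered and 54.0% for the 16602 not covered, so the same direction held across the genome. In Cacna1c, whose starts are printed above, the covered middle start had 81.3% G+C and both uncovered ones had 51.3%. In Cacnb4 the covered starts had 69.7% and 78.3%, and the uncovered one had 49.7%. Atp2b2 was mixed, with 58.7% at its covered start, between the 72.7% and 54.0% of its uncovered ones. Slc8a1 was covered at 50.7%, the lowest of the 14. Above 70% G+C were 11 of the 14 covered and 8 of the 23 uncovered starts. Of these 8 uncovered starts, 2 lay just outside a KCl island. The Cacna1d start inside the gene, the richest of all 37 at 87.3%, was 86 bp from one, and a Cacnb1 start of 73.7% was 27 bp from one. The other 6 had no KCl island within 2 kb, and neither had the upstream start of Cacna1d, at 40.3%.

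**Figure D5:**
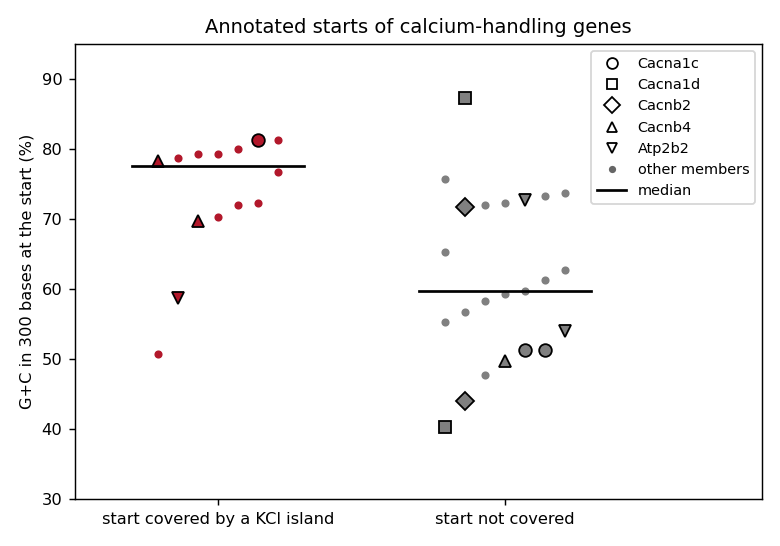
G+C share (%) of the 300 bases at each of 37 annotated starts of calcium-handling genes, for starts covered by a KCl island (red) and not covered (grey); larger symbols mark genes with several starts that are named in the text, and lines are medians. The medians are 77.5% for covered and 59.7% for uncovered starts, and the ranges overlap.

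Motifs known from activity-regulated promoters were searched as letters on both strands of the same 300 bases. The full CRE, TGACGTCA, was in 0 of the 37 start entries of calcium-handling genes and in 2.23% of all 21263 promoter entries. Its shorter form TGACG, which every full CRE also contains, was in 11 of 37 (29.7%), against 23.6% of all entries. Among starts under a KCl island it was in 6 of 14, against 33.6% of all covered entries; the Stim1, Orai1 and Calm3 sequences above each hold one. The AP-1 motif TGANTCA was in 0 of 37, against 6.99% of all entries, and the EGR motif GCGTGGGCG in 0 of 37, against 0.828%. The E-box CANNTG was in 23 of 37 (62.2%), against 69.0%. These are matches of letters in a short window and do not show whether a factor binds.

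Other gene sets were counted for comparison. They were drawn by gene symbol alone, the potassium channel genes as all symbols that start with Kcn. The receptor genes were symbols with a receptor prefix followed by a digit, or by a letter and a digit. Such a rule can take in genes that are not receptors and misses subunits without a digit, such as Gabrd, so the sets are approximate. Calcium-handling genes had a KCl island at an end in 17 of 34 cases, the glutamate and GABA receptor genes in 27 of 44 (61.4%) and the potassium channel genes in 30 of 94 (31.9%). In the body or flanks the counts were 29 of 34, 34 of 44 (77.3%) and 52 of 94 (55.3%), in the same order. Basal islands in the body or flanks were at 6 of 34 calcium-handling genes, 2 of 44 receptor genes and 3 of 94 potassium channel genes. Median gene length was 133 kb, 199 kb and 32.7 kb in these sets. Over all protein-coding genes the KCl shares were 25.2% at an end and 38.9% in the body or flanks. The basal share in the body or flanks was 1.68%. The differences between sets were not tested.

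A further 53 genes of calcium handling, from a list set beside the 34, had fewer islands and were shorter, with a median length of 31.9 kb. Of them, 19 (35.8%) had a KCl island at an end, against 25.2% of all protein-coding genes. In the body or flanks 30 (56.6%) had a KCl island, against 38.9%, and 0 had a basal island, against 1.68%. By role, end islands were at 4 of 12 further channel subunits, 6 of 12 further store genes, 2 of 4 further entry genes, 1 of 9 further extrusion genes, 2 of 6 genes of mitochondrial uptake and 4 of 10 buffers and sensors. Fkbp1b, whose product binds ryanodine receptors, had the largest fold at an end among the 53, 4.08-fold, against 2.76-fold for Cacng2, a subunit that also guides AMPA receptors. Jph3, which holds the endoplasmic reticulum close to the plasma membrane, stood at 2.43-fold. Nalcn, a sodium leak channel related to the calcium channel pores, had 8 KCl islands and none at an end.

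The 2 kb limit at the ends was close to few islands. Just inside it lay the islands of Itpr1 at 1318 bp, Cacna1h at 1734 bp and the far-end island of Cacnb4 at 1920 bp. Just outside lay a Cacna2d3 island at 2058 bp, in a gene that has another island at its end. Among genes with no end island the nearest was at 5487 bp in Stim1, followed by 6631 bp in Cacna1a, 6809 bp in Slc8a2 and 7238 bp in Cacna1i.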

How the data were processed

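The study had 4 samples, 1 IP and 1 input library for KCl and for basal neurons, grouped by their titles. Separate input files were not analysed here. Per the submitters' processing notes, the tools were BWA and SICER 1.0 and the build mm10 (GRCm38). File names give the SICER settings as window 200 bp, gap 600 bp and FDR 0.01. Each list was called on 1 IP library, and which input served as control is not given in the sources used here. The authors deposited for each island raw counts of IP and control reads, a fold (the ratio of those counts divided by a constant, 1.59 for KCl and 0.880 for basal), a p-value and an FDR. The deposited p-value was recomputed as a Poisson tail that takes the control count as exact, which the interval given here does not. PCR reads without molecular identifiers are not independent molecules.

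Coordinates were turned into 1-based positions and set against RefSeq gene spans of GRCm38.p6 with own code in Python 3.11.15 (pandas 2.3.3, scipy 1.17.1), tested on simulated data. An overlap of 1 bp counted. The 34 genes, the other lists and the length classes were chosen with earlier results of these data known. Genes named with values were those with a basal island, and in each role up to 4 with the largest KCl fold at an end and up to 3 with the most KCl islands; other names were chosen after their values were seen. Alternatives changed the window, flank, FDR, fold, interval, overlap and list length.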

Additional observations from a re-analysis of the deposited data

How the results depend on the processing

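The count of calcium-handling genes with a KCl island at an end, 17, was 6 at a deposited fold of at least 2 (8.74% of all genes), and 0 with the KCl list shortened to the basal length by p-value (0.114%) or by fold (0.0685%). It ranged between 13 and 22 under the other alternatives, among them 15 at annotated starts and 22 at ends or starts, both chosen after seeing the data. The count with a KCl island in the body or flanks, 29, was 5 with the list shortened by p-value (Cacna2d1, Cacna2d3, Cacnb2, Ryr1 and Ryr3, against 1.51% of all genes) and 3 by fold (Cacna1c, Cacna1d and Cacna2d3, against 1.46%), and otherwise between 22 and 32. The basal count in the body or flanks, 6, was 2 at an FDR of at most 1e-05 (Cacnb2 and Ryr1, against 0.484%) and otherwise between 4 and 6, and the basal count at ends was 0 under every alternative. No paired analysis was possible because each condition had 1 IP library, and for the same reason no replicate could be left out. Library depth is not given in the sources used here, and no island held fewer than 20 IP reads in KCl or 18 in basal.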
